A study of Mus musculus with 2 samples.

Results

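Along the mouse genome, 2290 intervals of 10 kb held few Tbx3 ChIP tags for the number of their input DNA tags. They were chosen by their counts. Chromosomes 1 to 19 and X were divided into 262808 non-overlapping bins, and 230895 bins had at least 20 input tags. A bin was called nearly empty when its ChIP count was at most 0.25 times its scaled input count. The nearly empty bins made up 0.992% of the bins with at least 20 input tags, which is the background for shares of such bins below. Shares of other sets have the base named with them. The counts of both libraries chose the bins, so their low ChIP level is a description and has no test.

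In chromatin immunoprecipitation followed by sequencing (ChIP-seq), an antibody enriches the DNA bound by a protein, here Tbx3, a T-box transcription factor of embryonic stem cells. Most tags of a ChIP library are DNA carried along without binding, and they usually follow the coverage of input, that is, of chromatin that was sheared and sequenced with no antibody step. Coverage in input depends on how many copies of a sequence the cells carry and on whether short tags can be placed there without ambiguity. Clusters of near-identical genes and repeats are places where both can fail, and distal chromosome 4 and the middle of chromosome 13 are known in mouse for clusters of KRAB zinc finger genes. Which genes, repeats or assembly gaps lie in the bins was not analysed here, and no sequence is printed, since no table used here is in the build of the files, mm8.

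The Tbx3 ChIP group and the input group hold 1 library each, both from untreated mouse embryonic stem cells. Per the labels' protocols, the D3 and R1 lines were grown with inactivated mouse embryonic fibroblasts (MEFs) and LIF, a cytokine that keeps the cells undifferentiated; the labels do not tie a line to a library. On the 20 chromosomes the ChIP library held 6881110 distinct tags and the input 9982870, so input counts were multiplied by 0.689. Antibody step, cell line, feeder share and tag filters may all differ between the 2 libraries, and with 1 library of each kind their parts cannot be told apart. There is no replicate error, and the 95% exact Poisson or binomial intervals cover counting error only.

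Bins without any ChIP tag were more frequent than those just above 0, while the rest of the nearly empty bins ran into the main group of ratios. Of the bins with at least 20 input tags, 689 had no ChIP tag at all, and a further 352 had a ratio of ChIP to scaled input above 0 and up to 0.05. Counts are whole numbers, so 1 ChIP tag in a bin of 20 to 29 input tags already gives a ratio above 0.05. Of the 689 bins, 198 had 20 to 29 input tags, so part of the step after 0 is set by this. The number of bins was lowest between 0.10 and 0.15, with 262 bins, and rose again to 332 between 0.20 and 0.25, to 457 between 0.25 and 0.30 and to 2157 between 0.45 and 0.50. The limit of 0.25 therefore lies on the lower slope of the main group and not at the lowest point. Just inside it were a bin of chromosome 3 from 137760001 to 137770000, a bin of chromosome 7 from 23190001 to 23200000 and a bin of chromosome 14 from 42810001 to 42820000, each with 11 ChIP and 64 input tags. Just outside it were a bin of chromosome 6 from 23100001 to 23110000, which held 20 ChIP and 116 input tags, and 2 bins with 10 ChIP and 58 input tags, on chromosome 6 from 83030001 and on chromosome 19 from 9380001.

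**Figure D1:**
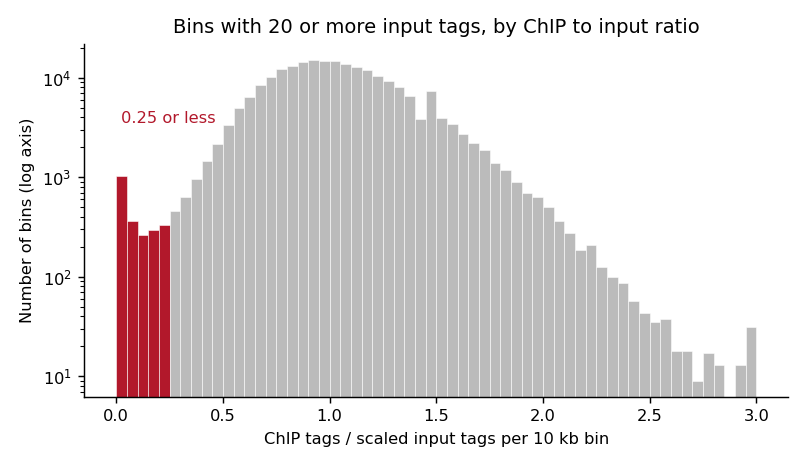
Number of 10 kb bins with 20 or more input tags (log axis) by the ratio of ChIP to scaled input tags, in steps of 0.05; the last bar collects all ratios from 2.95 upwards. Nearly empty bins are red, and their first bar, which includes the 689 bins without a ChIP tag, stands above the lowest point between 0.10 and 0.15.

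Together the 2290 bins held 8695 ChIP and 172597 input tags, a ratio of 0.0731 (95% interval 0.0716 to 0.0746). All bins with at least 20 input tags had a ratio of 0.997. The median nearly empty bin held 2 ChIP and 47 input tags, against 29 ChIP and 40 input tags in the median bin of all those tested. ChIP counts in them ran from 0 to 65 and input counts from 20 to 1951. Their upper quartile was 5 ChIP tags, but the highest counts lay above the 29 of the median tested bin. The name nearly empty is thus relative to input.

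The pattern had almost no counterpart in the other direction. Of 224851 bins with at least 14 ChIP tags, 27 had a scaled input count of at most 0.25 times the ChIP count (0.0120%), and 16 of these were on X. At the level of single tags, 322 intervals between neighbouring ChIP tags held at least 100 input tags, and 22 held at least 500. Between neighbouring input tags, 3 intervals held at least 69 ChIP tags and none held at least 345, counts chosen to match after scaling. All 3 were shorter than 1 kb. The longest of the 10 ChIP-free intervals with most input tags ran on chromosome 2 from 174822557 to 177026803, over 2204 kb, with 1304 input tags. Much of it had almost no input either, since 155 of its 10 kb bins had fewer than 3 input tags.

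Nearly empty bins were frequent where input was dense. Of the bins with 80 or more input tags, 570 of 1624 were nearly empty (35.1%). The share was 1.34% at 20 to 29 input tags, fell to 0.614% at 30 to 39 and 0.450% at 40 to 59, and then rose to 1.88% at 60 to 79, 24.4% at 80 to 119 and 62.6% at 120 or more. At the lower edge of 20 input tags, 13.8 ChIP tags correspond to the scaled input and at most 3 were allowed, so counting error weighs most there. The rule uses the input count, so these shares describe how the bins were spread over it. The part of input density in the low ratio was not tested.

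Bins without a ChIP tag were found in each of these classes of input density, but none held more than 420 input tags. Among the 505 nearly empty bins with 20 to 29 input tags, 198 had no ChIP tag (39.2%). Among the 285 with 120 or more, 39 had none (13.7%), and their median was 6 ChIP tags. The rule allows at most 3 ChIP tags at 20 input tags and 20 at 120, so it favours a smaller share without ChIP tags among denser bins. The 689 bins with no ChIP tag had a median of 38 input tags (interquartile range 28 to 57), close to the 40 of all bins tested, while the 1601 with some ChIP tags had a median of 54 (32 to 91). The rule thus took in bins at ordinary input with ChIP at 0 as well as bins at raised input with few ChIP tags.

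**Figure D2:**
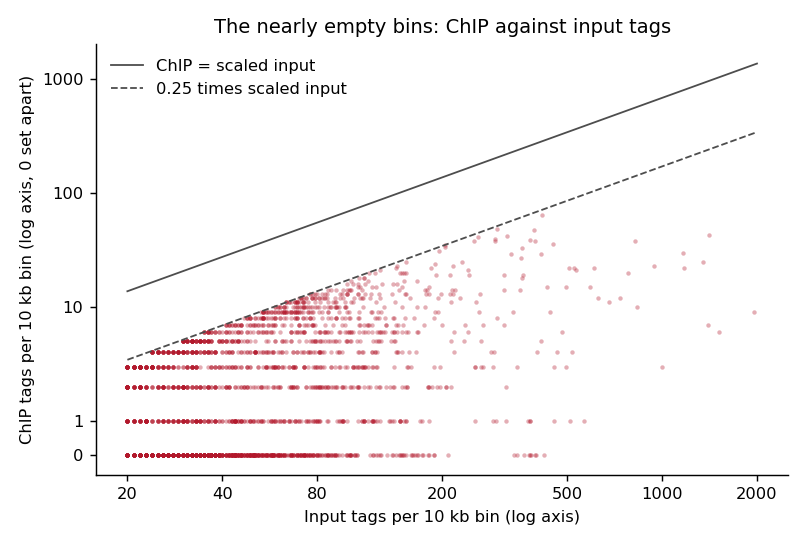
Each point is 1 of the 2290 nearly empty bins, by its input tags and its ChIP tags per 10 kb (both log axes, with ChIP counts of 0 on a line of their own); lines mark ChIP equal to scaled input and 0.25 times that. The 689 bins at 0 lie mostly at ordinary input, and no bin held over 65 ChIP tags, whatever its input.

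The bins with most input lay side by side on chromosome 8. The 10 nearly empty bins with most input tags all fell between 19680001 and 19790000 there, with 831 to 1951 input tags each. The bin from 19750001 to 19760000 held 1951 input tags and 9 ChIP tags, a ratio of 0.00669. Its neighbour from 19760001 to 19770000 held 1000 input and 3 ChIP tags, and the bin from 19700001 to 19710000 held 1403 input and 43 ChIP tags. The bin from 19750001 held 2144 input tags before collapsing, so 9.002% were repeats. In these 10 bins the share of repeats ran from 4.05% to 9.002%, above the upper quartile of 2.21% among nearly empty bins with 80 or more input tags. Those dense bins had a median of only 119.5 input tags, and the part of input density in the share of repeats was not tested. The cluster around them, from 19670001 to 19810000, had 14 nearly empty bins with 224 ChIP and 14301 input tags, and each of the 14 had at least 1 ChIP tag.

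Most nearly empty bins had others nearby. Joining bins whose starts lay at most 50 kb apart gave 659 groups. Of the 2290 bins, 1906 (83.2%) lay in the 275 groups of 2 or more and 1078 (47.1%) in the 55 groups of 10 or more, while 384 stood alone. When the bin directly after a nearly empty bin had at least 20 input tags, it was nearly empty as well in 1351 of 1860 cases (72.6%). At a distance of 100 kb this share was 44.5%, at 500 kb 17.8% and at 1000 kb 8.93%, still above 0.992%, the share over all tested bins. Positions were not used by the rule, but neighbouring bins are not independent and no test was made.

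The 12 largest groups spanned 290 to 630 kb each and lay on chromosomes 4, 5, 7, 12, 13, 14 and X. The largest, on chromosome 7 from 6810001 to 7400000, had 56 nearly empty bins with 215 ChIP and 5633 input tags, a ratio of 0.0554 (0.0482 to 0.0633). On chromosome 14 from 3000001 to 3610000, at the first tags of that chromosome, 53 bins held 94 ChIP and 7626 input tags, a ratio of 0.0179 (0.0145 to 0.0219). That ratio was lower than the one on chromosome 7, but the same counts chose the bins, and no test was made. A similar start-of-chromosome group on X, from 3020001 to 3310000, had 25 bins with 101 ChIP and 2824 input tags, a ratio of 0.0519 (0.0423 to 0.0631).

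Input density varied widely among these 12. It was highest on chromosome 4 from 144850001 to 145170000, where 32 bins had a median of 305.5 input tags and 3 ChIP tags. The second group of that chromosome, from 60060001 to 60390000, had a median of 115 input and 5 ChIP tags in 25 bins, and 3 of them had no ChIP tag. In contrast, 28 bins of chromosome 12 from 18510001 to 18870000 had a median of 39 input tags, the level of an average bin, and 15 of them had no ChIP tag. The next group on that chromosome, from 19020001 to 19350000, had 27 bins, of which 3 had none, with 92 ChIP and 1875 input tags.

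Chromosome 14 carried 2 more of the 12 groups. From 40120001 to 40500000, 34 bins held 133 ChIP and 3120 input tags, and from 51620001 to 51980000, 26 bins held 58 ChIP and 1470 input tags, 14 of them with no ChIP tag. On chromosome 5 from 10860001 to 11160000, 24 bins held 35 ChIP and 1546 input tags. Over all 55 groups of 10 or more bins, the median input per bin ran from 26 to 1080, and it was 80 or more in 16 of them. Their ratios reached 0.164 at most.

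Some groups had no ChIP tag in any nearly empty bin. This held for 5 of the 55 groups of 10 or more. On chromosome 14 from 117670001 to 117880000, 19 bins held 882 input tags and 0 ChIP tags, where the scaled input was 608. The sums leave out 2 bins within this span that were not nearly empty. They held 14 and 11 ChIP tags for 56 and 52 input tags. On chromosome 13 from 17680001 to 17850000, 17 bins held 732 input tags and 0 ChIP tags, and on chromosome 14 from 24710001 to 24850000, 14 bins held 802 and 0. The others were on X from 50460001 to 50630000, with 354 input tags in 11 bins, and on chromosome 4 from 31640001 to 31740000, with 360 in 10. Median input per bin ran from 33 in the group on X to 59.5 in that on chromosome 14 from 24710001. Over all tested bins the median was 40 (interquartile range 33 to 49), and over those of X it was 24. These groups were singled out for their ChIP count of 0 after their values were seen.

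Unbroken runs of such bins differed in the level of ChIP beside them. Taking only directly adjacent bins with no ChIP tag, 25 runs had 5 or more bins and held 203 of the 689 bins. The longest had 19 bins, on chromosome 13 from 61490001 to 61680000, with 693 input tags, between 22 and 49 per bin. Taking 3 tags as the limit for a count of 0 gives 0.628% of the scaled input of that run. This limit is a fixed setting and not an exact interval. The run was chosen for its count of 0, so the limit is a description and has no test. In the run of 17 bins on chromosome 13 from 17680001 to 17850000, each bin had 26 to 74 input tags. The last ChIP tag before it lay at 17679465. The 10 bins with at least 20 input tags within 100 kb of the run that were not nearly empty held 292 ChIP and 483 input tags, a ratio of 0.877 (0.779 to 0.984). ChIP coverage thus went from near the input level to 0 at the start of the run.

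On its far side, this run met a stretch without tags of either library. The next ChIP tag lay at 18074869, which left 395.4 kb free of ChIP tags. Of the 755 input tags in that interval 732 lay in the run, and 21 of its bins had fewer than 3 input tags. The run of 14 bins on chromosome 14 had the same shape. ChIP tags stopped at 24708200 and resumed at 25126780, and 26 bins in between had fewer than 3 input tags. Flanking bins there held 327 ChIP and 563 input tags, a ratio of 0.843 (0.754 to 0.939). The 25 runs of 5 or more bins lay in 24 ChIP-free intervals, and for 12 of the runs that interval had at least 5 bins of fewer than 3 input tags.

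Other runs varied in what bounded them, and some also met bins with few tags of either library. The ChIP-free interval around the longest run, from 61480707 to 61709915 on chromosome 13, held 793 input tags and no bin of fewer than 3. On chromosome 14 the run of 11 bins from 117670001 to 117780000 held 521 input tags, and its flanking bins had a ratio of 0.688 (0.618 to 0.764). After it came 2 bins with 14 and 11 ChIP tags, and a further run of 8 bins from 117800001 to 117880000 held 361 input tags and 0 ChIP tags. Its 2 flanking bins had a ratio of 0.336 (0.217 to 0.496), and 17 bins of its ChIP-free interval had fewer than 3 input tags. On chromosome 4 the run of 9 bins from 121370001 to 121460000 held 368 input tags, 6 bins of its ChIP-free interval had fewer than 3, and its flanking bins had a ratio of 0.945 (0.802 to 1.11). The run of 8 bins on chromosome 12 from 56010001 to 56090000 was denser, with 1022 input tags, a median of 147.5 per bin and no ChIP tag. In its ChIP-free interval, 7 bins had fewer than 3 input tags. Over the 19 of 25 runs that had any flanking bin to compare, those bins held 3212 ChIP and 5459 input tags, a ratio of 0.854 (0.824 to 0.884). Bins that flank 2 runs, such as those between both runs on chromosome 14, entered this sum for each run. Its interval treats them as distinct and is too narrow. By run, the flanking ratio ran from 0.336 to 1.22 with a median of 0.772, and it was under 0.5 in 4 of the 19, so not all runs began from near the input level.

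Other groups held only a few ChIP tags. On chromosome 7 from 19230001 to 19540000, 17 of 20 nearly empty bins had no ChIP tag, and the 20 held 3 ChIP tags for 782 input tags. They lay partly in a ChIP-free interval of 772.8 kb, from 19261073 to 20033838, that held 1369 input tags. Of its bins, 13 had fewer than 3 input tags. On chromosome 17 from 64000001 to 64220000, 18 of 19 bins had none, and the 19 held 4 ChIP tags for 591 input tags. A further long interval without ChIP tags ran on chromosome 4 from 42050518 to 42381781, with 1022 input tags in 331.3 kb. There, 7 bins had fewer than 3 input tags. These places were also named after their values were seen.

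**Figure D3:**
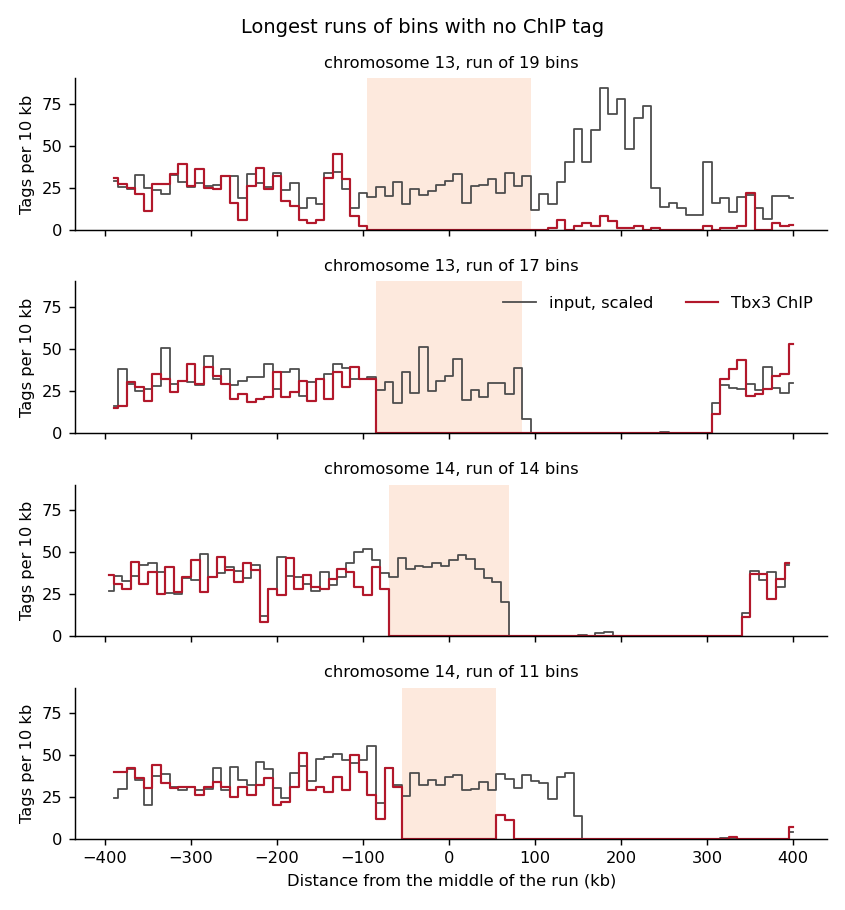
Tags per 10 kb of the Tbx3 ChIP (red) and of scaled input (grey) against the distance in kb from the middle of the 4 longest runs without a ChIP tag, which are shaded. In the lower 3 panels ChIP stays near input up to the left edge of the run and is 0 within it. In the second and the third panel both libraries then lack tags before coverage resumes. In the lowest panel 2 bins with 14 and 11 ChIP tags follow the run, and further right both libraries lack nearly all tags.

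Both stretches named in the rule held many nearly empty bins, in blocks rather than evenly. On chromosome 4 from 143000001 to 148000000, 71 of 417 bins with at least 20 input tags were nearly empty (17.0%). On chromosome 13 from 61000001 to 69000000, 22.9% of 625 were. These stretches were chosen for this, and no test was made. Together they held 214 of the 2290 bins, 9.34%, so 2076 lay elsewhere.

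On chromosome 4 the nearly empty bins were dense in input. The 71 bins held 562 ChIP and 15984 input tags, a ratio of 0.0510 (0.0469 to 0.0554), with a median of 200 input tags, and 47 of them had 80 or more. Within 320 kb, the 32 bins from 144850001 to 145170000 held 10524 of these 15984 input tags and 231 ChIP tags. Beside them, from 144680001 to 144800000, 7 bins held 188 ChIP and 2712 input tags. Their median of 33 ChIP tags was above the 29 of the median tested bin, so they were low only relative to input. A group of 8 bins from 143240001 to 143340000 was of ordinary density, with 41 ChIP and 354 input tags and the higher ratio of 0.168 (0.121 to 0.228). A single ChIP-free interval, from 145044420 to 145090235, held 1889 input tags in 45.8 kb, the most of any in the genome.

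On chromosome 13 the nearly empty bins were closer to ordinary density. The nearly empty bins there, 47 with no ChIP tag and 96 with some, held 416 ChIP and 10463 input tags, a ratio of 0.0577 (0.0523 to 0.0635), with a median of 50 input tags, and 42 had 80 or more. On chromosome 4, 13 of 71 had no ChIP tag. A first block of 48 bins, from 61480001 to 62110000, had a median of 37.5 input tags, and 25 of them had no ChIP tag. A second block of 52 bins, from 65330001 to 65930000, had a median of 73.5 input tags, and 10 of them had no ChIP tag. Smaller groups followed from 66010001 to 66090000, with 33 ChIP and 771 input tags in 7 bins, and from 66370001 to 66500000, with 16 ChIP and 404 input tags in 9 bins.

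The remaining bins of both stretches were closer to the genome level but below it. On chromosome 4 the other 346 bins held 12248 ChIP and 21612 input tags, a ratio of 0.822 (0.808 to 0.837). On chromosome 13 the other 482 had a ratio of 0.866 (0.851 to 0.881). All bins of the genome with at least 20 input tags that were not nearly empty had a ratio of 1.01. Ratios under 0.50 were found in 36 of the 346 (10.4%) and in 66 of the 482 (13.7%), against 2.48% of such bins over the genome.

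**Figure D4:**
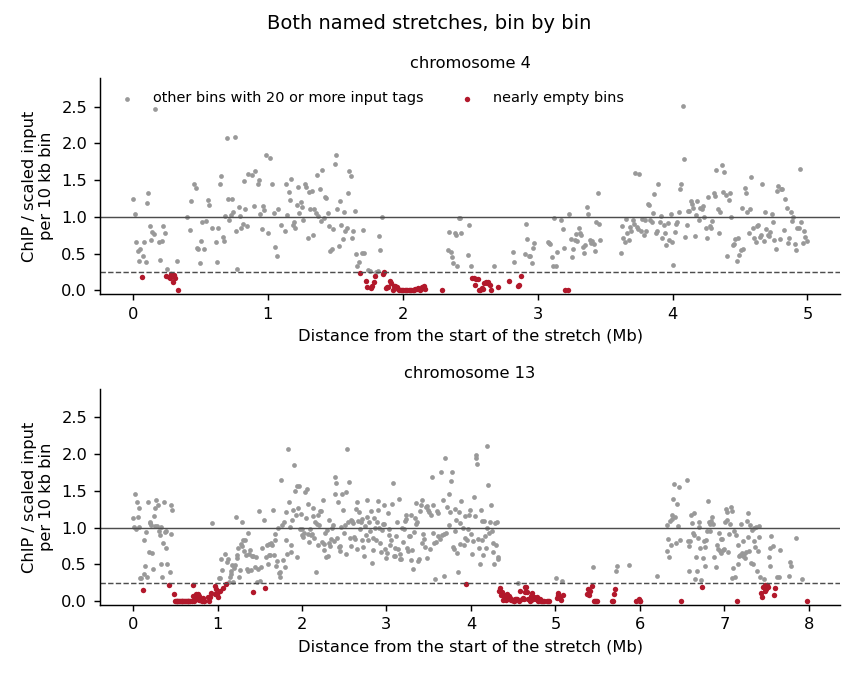
Ratio of ChIP to scaled input in each 10 kb bin with 20 or more input tags against the distance in Mb from the start of the stretch on chromosome 4 (5 Mb long) and on chromosome 13 (8 Mb long). Nearly empty bins (red) form blocks at ratios near 0, and most other bins (grey) scatter around 1; the dashed line is the limit of 0.25.

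Long stretches whose ratio was shifted as a whole held smaller shares of nearly empty bins than both named stretches. On chromosome 6 from 72000001 to 84000000, 26 of 1098 bins were nearly empty (2.37%), still above the 0.992% over all tested bins. Their ratio was 0.211 (0.179 to 0.248), and none was without ChIP tags. The other bins there had a ratio of 0.601, so these 26 lay at the lower end of a stretch that was low throughout. On chromosome 8 from 53000001 to 111000000, the ratio of all tested bins was 1.31. There, 13 of 5403 bins were nearly empty (0.241%), below the share over all tested bins.

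Chromosomes differed widely in their number of nearly empty bins. Chromosomes 7, 13, 14, X, 4 and 12 carried 1550 of the 2290 (67.7%) with 28.5% of the tested bins. Chromosome 7 had 304, chromosome 13 had 269, chromosome 14 had 263 and chromosome 4 had 251. At the other end, chromosome 15 had 11 of 9483 tested bins (0.116%), none of them without ChIP tags, chromosome 16 had 14 and chromosome 11 had 20. The median over chromosomes was 0.604%.

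The share was highest on X, at 4.25% (256 of 6027). Tested bins of X had a median of 24 input tags against 41 on autosomes, and 36.4% of its bins reached 20 input tags against 91.3% on autosomes. Its tested bins were therefore those with relatively many input tags, and they had a ratio of 0.801 as a whole. Counted over all bins, tested or not, 1.55% of X and 0.826% of the autosomes were nearly empty. The ratio in the nearly empty bins was 0.0714 (0.0657 to 0.0776) on X and 0.0732 (0.0716 to 0.0748) on autosomes. The counts that chose the bins enter both ratios, and no test was made between them.

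**Figure D5:**
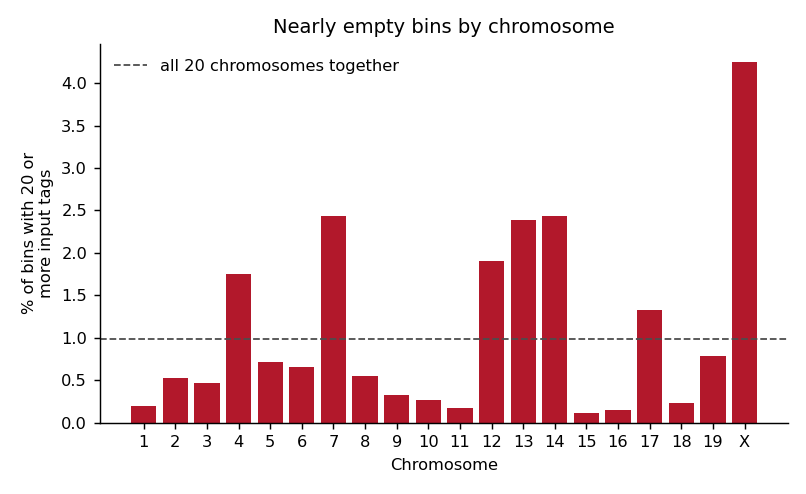
Nearly empty bins as a percentage of the bins with 20 or more input tags on each chromosome; the dashed line is 0.992%, the value over all 20 chromosomes. X (4.25%), 14, 7 and 13 are highest, and chromosome 15 (0.116%) is lowest; X has fewer bins that reach 20 input tags.

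Nearly empty bins lay more often than other bins at chromosome starts and next to poorly covered DNA. Within 1 Mb of the first input tag of a chromosome lay 178 of the 2290 (7.77%), against 0.759% of all tested bins. Of these 178, 71 were on chromosome 14, 41 on X and 22 on chromosome 4. Within 1 Mb of the last tag the shares were 0.655% and 0.784%. A neighbouring bin with fewer than 20 input tags was found for 630 (27.5%), against 9.44% of tested bins, and for 37.7% of those with no ChIP tag. A neighbouring bin without any input tag was found for 54 (2.36%), against 0.106%.

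Low ratios reached beyond the bins that met the rule. Around the 119 groups of 5 or more, bins that had at least 20 input tags and were not nearly empty had a ratio of 0.628 (0.611 to 0.646) in the first 10 kb outside the group. It was 0.762 (0.736 to 0.790) at 50 kb, 0.788 (0.760 to 0.817) at 100 kb, 0.854 (0.825 to 0.885) at 200 kb and 0.916 (0.886 to 0.947) at 300 kb. At 10 kb, 126 bins held 4980 ChIP and 11503 input tags, and at 300 kb 133 bins held 3571 and 5656. Summed over bins, the lower ratio at 10 kb thus went with more input tags and not with fewer ChIP tags. These flanking bins were not chosen by the rule, except that bins at or under 0.25 were left out, which can only raise their ratio.

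Both strands were affected alike, and the input tags lay throughout the bins. Plus-strand tags made up 49.97% (48.9% to 51.0%) of the ChIP and 49.92% (49.7% to 50.2%) of the input tags in nearly empty bins, against 49.98% of both in all tested bins. Computed for each strand separately, the ratio was 0.0732 for plus-strand and 0.0730 for minus-strand tags. On average 9.05 of the 10 pieces of 1 kb in a nearly empty bin had an input tag, against 9.57 in all tested bins, and the fullest piece held a median of 20.7% of the input tags, against 18.6%.

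Repeated input tags were a small share in most of them, with 2 exceptions. Tags that repeated a position and strand were 2.12% of all input tags in the nearly empty bins, against 6.40% in all tested bins, where a few pile-ups hold most of them. Among bins with under 80 input tags the order was reversed, with 1.30% in nearly empty bins and 0.606% in the others. More repeated than distinct tags were found in 2 of the 2290, on chromosome 4 from 60960001 to 60970000 (61 distinct of 266 tags) and on chromosome 17 from 64140001 to 64150000 (39 of 98), both without ChIP tags. Among bins with 80 or more input tags, none of the 570 nearly empty bins had more repeated than distinct tags, while 24 of the other 1054 did. The median share of repeated tags in these dense bins was 1.19% in nearly empty and 1.02% in the other bins. At least 1 repeated tag was found in 41.0% of nearly empty bins and in 21.1% of all tested bins; nearly empty bins also had more input tags, and the part of that difference was not tested.

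Within nearly empty bins, ChIP tags were few in every kind of 1 kb piece. Pieces with 1 or 2 input tags held 0.183 ChIP tags per kb (0.170 to 0.195), against 2.51 in other tested bins. Pieces with 11 to 20 input tags held 0.576 (0.549 to 0.605), against 3.71. The 1320 pieces with over 20 input tags held 1.23 (1.17 to 1.29), so even the densest pieces had fewer ChIP tags than pieces of 1 or 2 input tags elsewhere. The counts that chose the bins enter these values, which are a description.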

How the data were processed

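Per the submitters' processing notes both libraries were placed on the mouse build mm8; aligner and filter settings, not given in the sources used here, are unknown. The authors deposited 1 line per mapped tag, without counts: a position and strand for ChIP, with each position and strand present at most once, and both ends of a 35 bp tag for input, with 664851 repeats. Each tag was represented by its 5′ end and collapsed to 1 per position and strand. Tags were counted in 10 kb bins starting at multiples of 10000, and input was scaled by 0.689, the ratio of collapsed totals. Groups join bins whose starts lie at most 50 kb apart. Bins were named by rule: both stretches, the 12 largest groups, the 10 bins with most input and 3 bins on each side of the limit; runs and groups without ChIP tags were named after their values were seen. The bins and measures were chosen with earlier results of these data known. Bin counting was tested on simulated data. Intervals are 95% exact intervals; those of ratios take input as fixed and are too narrow. No test between conditions was made, since each group has 1 library. Python 3.11.15, numpy 2.4.6, pandas 2.3.3 and scipy 1.17.1 were used.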

Additional observations from a re-analysis of the deposited data

How the results depend on the processing

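Of 72 values (6 results under 12 alternatives, 2 of them added after seeing the data, those without X and without dense bins), 53 stayed within 1.5 times the reported count or inside the interval of the ratio. Some of the 53 could not move. Bins with no ChIP tag meet any ratio limit or scaling, and leaving out X cannot change counts on chromosomes 4 and 13. Bins of 20 kb gave 1275 nearly empty bins, 335 with no ChIP tag, 1091 in groups of 2 or more, 38 on the stretch of chromosome 4 and 85 on that of chromosome 13; these bins are fewer by construction. Bins of 5 kb gave 3698, with 121 on the stretch of chromosome 4. A minimum of 40 input tags gave 1349, 325 with no ChIP tag, 1150 in groups and 90 on the stretch of chromosome 13. Without bins of 80 or more input tags, 24 of 71 were left on the stretch of chromosome 4. The ratio over nearly empty bins, 0.0731, was 0.0404 and 0.129 with limits of 0.15 and 0.35, which set it directly, 0.0753 with bins shifted by 5000 bp, 0.0827 with bins of 5 kb, 0.0704 with at least 40 input tags and 0.0908 without dense bins. With all tags kept it was 0.0324: the 2217 bins shared with that setting had a ratio of 0.0721, and the 53 called only there had 0.0213 and held 612869 input tags. With input thinned to the ChIP total 1875 bins were called, 1800 of them shared. No paired analysis was possible because each group has 1 library. At 20 input tags the depth allows at most 3 ChIP tags, so single bins near the minimum are the least certain.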
